A study of Rattus norvegicus with 17 samples.

Results

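Acetylation of histone H3 at lysine 27 (H3K27Ac) was mapped by ChIP-seq in immature (iOL) and mature (mOL) oligodendrocytes, and the peak lists of these 2 stages were compared. The lists hold 21589 iOL peaks and 35268 mOL peaks, together 56857 of the 189320 peaks in the 17 lists of the series. They were taken by target and stage, using every peak in each file, and a peak counted as kept when it shared at least 1 bp with a peak of the other stage, as lost when it was called only in iOL and as gained when it was called only in mOL. The other lists map trimethylation of lysine 4 (H3K4me3), the factors Brg1 and Olig2, RNA polymerase II (RNAPII) and H3K9me3 at the same stages and in oligodendrocyte precursors (OPC), RNAPII only in OPC and iOL.

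The cells of all groups came from cortices of wild-type Sprague-Dawley rat pups of postnatal day 2, with no genetic change. Per the labels' protocols, precursors were grown with PDGF-AA (10 ng/ml) and bFGF (20 ng/ml) and differentiated with T3 (15 nM) and ciliary neurotrophic factor (10 ng/ml). Neither the hours in culture nor any pooling of animals is stated in the labels. Stages follow the sample titles, although the isolation protocol uses the name of the immature stage for the starting cells. The stage could not be checked against marker genes, because the peaks carry no gene names and no annotation of rn4, the rat build of the files, was used here.

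H3K27Ac lies on nucleosomes at active promoters and active enhancers, whereas H3K4me3 is concentrated at promoters. A peak with H3K27Ac and no H3K4me3 is therefore commonly read as a distal, enhancer-like element. Olig2 is a basic helix-loop-helix transcription factor required for the oligodendrocyte lineage. Brg1 (Smarca4) is the ATPase of SWI/SNF-type chromatin remodelling complexes, which move nucleosomes at regulatory elements. Below, a peak that met no mOL H3K4me3 peak is called distal, and one that met such a peak is called H3K4me3-marked.

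There was 1 library for each target and stage, so no difference between stages could be tested, and a difference between stages cannot be told apart from a difference between libraries. Bracketed ranges are exact 95% intervals (Clopper-Pearson for shares, order statistics for medians) over peaks, taken as independent, and cover only counting error. Sequencing depth is unknown, and the mOL list has 1.63 times as many peaks as the iOL list and 1.78 times the sequence (38.6 against 21.7 Mb). The comparison was therefore also made with the 21589 widest mOL peaks, the same number as in iOL, which leaves out 13679 mOL peaks of 706 bp or less.

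Most acetylated regions of iOL were still called in mOL, and nearly as many regions again were called in mOL alone. Of the iOL peaks, 18961 (87.8% [87.4, 88.3]) were kept and 2628 (12.2%) were lost. Of the mOL peaks, 18399 (52.2% [51.6, 52.7]) were kept and 16869 (47.8%) were gained. The kept counts differ because a wide peak can meet several of the other stage: 1883 mOL peaks each joined more than 1 iOL peak, and 1454 iOL peaks each met more than 1 mOL peak. Counted in sequence, the stages shared 18.4 Mb, which is 84.7% of the iOL sequence and 47.6% of the mOL sequence.

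With equal numbers of peaks, 29.1% of iOL peaks (6274) were lost and 35.1% of mOL peaks (7580) were gained. Removing mOL peaks can only add losses, whereas the share gained fell. In lists of equal number, gains outnumber losses only by as much as kept iOL peaks (15315) outnumber kept mOL peaks (14009). Which is more numerous therefore says nothing further about the stages. Of the 6274 iOL peaks lost with equal numbers, 58.1% [56.9, 59.3] did meet one of the narrower mOL peaks that had been left out. The mOL list was also shortened further to its 10943 widest peaks, which cover as much sequence as the iOL list. Of the iOL peaks 45.3% were then kept, and 25.2% of these mOL peaks were gained. Few calls lay at the edge of the overlap rule: 52 kept iOL peaks shared at most 50 bp, and 81 lost peaks lay within 50 bp of an mOL peak. Of lost peaks, 24.4% [22.7, 26.0] lay within 1 kb of any mOL peak, and 17.5% [16.1, 19.0] within 1 kb of a kept iOL peak. Of gained peaks, 16.8% [16.2, 17.4] lay within 1 kb of an iOL peak.

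Kept, gained and lost peaks differed in how often they carried the promoter mark. An mOL H3K4me3 peak was met by 57.0% [56.3, 57.7] of kept mOL peaks, by 22.9% [22.2, 23.5] of gained peaks and by 15.5% [14.1, 16.9] of lost peaks. In number, 13010 gained peaks were distal and 3859 were H3K4me3-marked, and 2221 lost peaks were distal and 407 were H3K4me3-marked. With equal numbers of peaks the share was 55.9% in kept and 17.7% in gained peaks, but 44.0% [42.7, 45.2] in lost peaks, so the order of gained and lost peaks depends on the narrow mOL peaks. Of the H3K4me3-marked peaks lost with equal numbers, 85.2% [83.9, 86.5] met a narrower mOL peak, against 36.8% [35.2, 38.5] of the distal ones.

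Gained and lost peaks were narrower than kept peaks, marked or not. The median width was 1045 bp [1033, 1057] in kept mOL peaks and 668 bp [663, 674] in gained peaks. It was 837 bp [829, 845] in kept iOL peaks and 584 bp [576, 594] in lost peaks. In mOL the widest class was the kept distal peaks, whose median was 1196 bp [1168, 1220], and gained distal peaks had a median of 690 bp [683, 697]. H3K4me3-marked peaks had medians of 972 bp [958, 986] when kept and 611 bp [604, 618] when gained.

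The share of peaks found at both stages followed width and H3K4me3 together. Among distal iOL peaks, 59.8% [57.3, 62.3] of those under 500 bp were kept, 73.5% [72.2, 74.7] from 500 to under 1000 bp, 90.3% [89.2, 91.3] from 1000 to under 2000 bp and 98.5% [97.5, 99.2] at 2000 bp and over. Among H3K4me3-marked iOL peaks the share was already 89.0% [87.4, 90.5] under 500 bp and reached 99.8% at 2000 bp and over. On the mOL side, 83.7% [82.3, 85.0] of distal peaks under 500 bp were gained, and 21.3% [19.6, 23.0] of those of 2000 bp and over. For H3K4me3-marked mOL peaks these shares were 58.4% [56.1, 60.7] and 3.11% [2.22, 4.23]. At like width a distal peak was thus called at 1 stage alone more often than an H3K4me3-marked one in all 4 width classes, as the plot of shares by width shows, with touching intervals for iOL peaks of 2000 bp and over. With equal numbers of peaks the shares kept under 500 bp were 39.0% [36.6, 41.5] in distal and 39.6% [37.3, 42.0] in marked iOL peaks, whose intervals overlap, and from 500 to under 1000 bp 58.4% [57.0, 59.8] and 72.4% [71.2, 73.5].

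**Figure D1:**
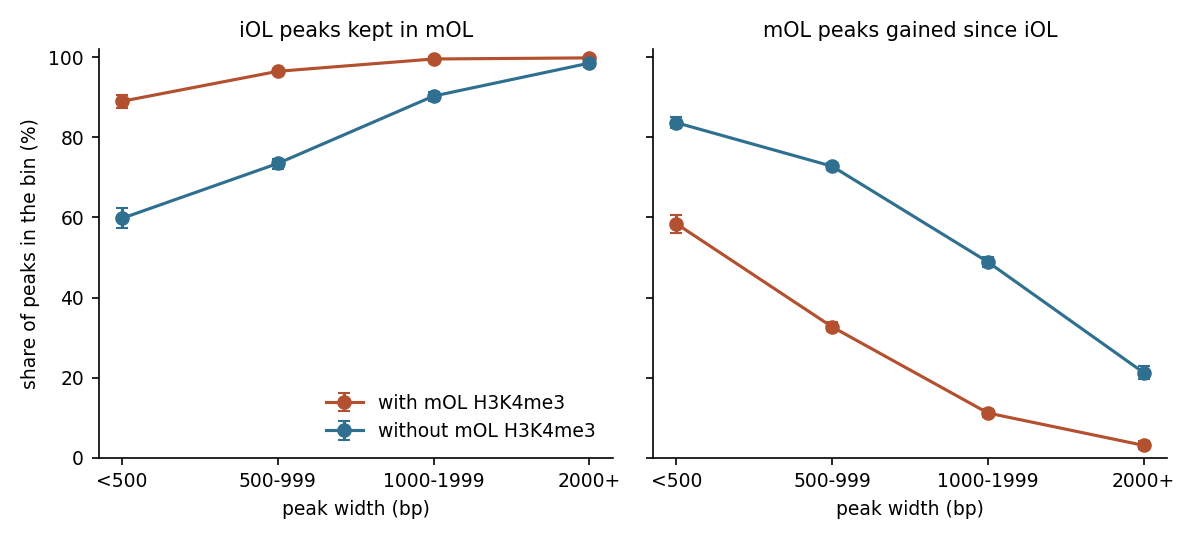
Share of iOL H3K27Ac peaks kept in mOL (left) and of mOL H3K27Ac peaks gained since iOL (right), in percent of the peaks of each width class (bp), whole lists; points are shares and bars exact 95% intervals over peaks. Wider peaks were kept more and gained less, and in each class the distal peaks (without mOL H3K4me3) differed between stages more often than the marked ones, down to 3.11% gained among marked peaks of 2000 bp and over.

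The largest gained and lost regions show the range of these calls. The widest gained distal peak was chr11:63641196-63647651 (rn4), 6456 bp long, which lay 972 bp from an mOL H3K4me3 peak and met an mOL Brg1 peak. The next was chr6:123573244-123579076, 5833 bp long and 12370 bp from the nearest mOL H3K4me3 peak, with no Brg1 or Olig2 peak in it. The widest gained H3K4me3-marked peak, chr19:25044398-25049674, spanned 5277 bp. It held H3K4me3 peaks of OPC and iOL and 3 OPC H3K27Ac peaks, so there the call was missing in iOL only. Lost regions were shorter: the widest distal one, chr9:8240565-8243113, spanned 2549 bp and lay 265319 bp from the nearest mOL H3K4me3 peak. Another, chr5:71076921-71079241, of 2321 bp, met Brg1 of iOL and not of mOL, and Olig2 of OPC and iOL and not of mOL. No sequence or gene is given for these regions, since no rn4 genome was used here.

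Kept peaks were mostly wider in mOL than in iOL, and at least 2-fold widening was more frequent in distal ones. Of 13942 pairs in which 1 iOL peak met 1 mOL peak and neither met another, 71.8% [71.0, 72.5] were wider in mOL. The median ratio of mOL to iOL width was 1.16 [1.16, 1.17], with middle values from 0.977 to 1.49 (quartiles), and the median gain was 139 bp. At least 2-fold widening was seen in 10.6% of the pairs and at least 2-fold narrowing in 1.36%. The widening was mostly on both sides: the mOL peak passed the iOL peak at both ends in 45.5% of pairs and fell inside it at both ends in 12.6%.

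The distal pairs (5387) had a median ratio of 1.22 [1.21, 1.24], and the H3K4me3-marked pairs (8555) 1.14 [1.13, 1.15]. The share of pairs wider in mOL was 71.3% [70.1, 72.5] in distal and 72.1% [71.1, 73.0] in marked pairs, whose intervals overlap, and the difference lay mainly in the tail. At least 2-fold widening was seen in 17.8% [16.8, 18.8] of distal pairs and in 6.14% [5.64, 6.67] of marked pairs, and at least 2-fold narrowing in 2.88% [2.45, 3.36] and 0.397% [0.275, 0.555]. Over all pairs, the called width of distal peaks thus varied more in both directions. Pairs were also taken in 4 equal groups by geometric mean width. In the narrowest group the intervals of distal and marked pairs overlap for at least 2-fold widening and for at least 2-fold narrowing. They overlap in the widest group for narrowing only, at 0.164% [0.0338, 0.478] and 0.121% [0.0146, 0.436]. In the groups between, both were more frequent in distal pairs. In the narrowest group the medians were 1.11 [1.08, 1.15] for distal and 1.13 [1.12, 1.15] for marked pairs, whose intervals overlap, and in the next-to-widest group 1.36 [1.30, 1.42] and 1.16 [1.14, 1.18]. The largest ratio, 9.99, was at the distal pair chr3:134971630-134974765, 3136 bp in mOL and 314 bp in iOL, which met Olig2 of all 3 stages and no Brg1. The smallest, 0.164, was at chr1:226650642-226651006, 365 bp in mOL within an iOL peak of 2224 bp.

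**Figure D2:**
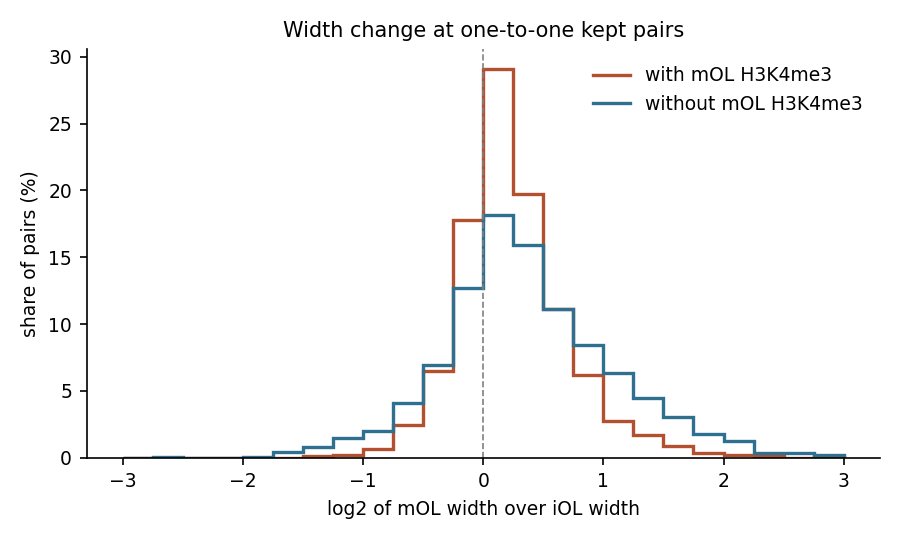
Distribution of the log2 ratio of mOL to iOL H3K27Ac peak width over one-to-one kept pairs, as percent of 8555 pairs with and 5387 pairs without mOL H3K4me3; the dashed line marks equal width. Both distributions lie mostly right of the line, and the distal one has heavier tails (17.8% against 6.14% of pairs at least 2-fold wider).

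The widening of distal pairs differed with the stage of Brg1. Pairs that met Brg1 in mOL only (536) had a median ratio of 1.41 [1.35, 1.47], and 83.2% [79.8, 86.3] of them were wider in mOL. Pairs with Brg1 in iOL only (550) had a median ratio of 1.14 [1.11, 1.18], and 65.1% [60.9, 69.1] were wider. Pairs with Brg1 at both stages and at neither stage lay between, each at 1.22. In the widest of the 4 width groups the medians were 1.403 [1.34, 1.52] with Brg1 in mOL only and 1.14 [1.08, 1.19] with Brg1 in iOL only. In the other 3 groups the intervals overlap, with 1.70 [1.41, 1.98] and 1.27 [1.12, 1.44] in the next-to-widest group, 1.405 [1.13, 1.76] and 1.16 [1.02, 1.26] in the next, and 1.19 [1.06, 1.396] and 1.07 [0.951, 1.16] in the narrowest. These groups do not hold the mOL width fixed, and a wider mOL peak covers more sequence in which an mOL Brg1 peak can lie, so the part of width in this difference was not tested. Pairs without Olig2 in iOL or mOL (1898) had a higher median ratio, 1.33 [1.29, 1.38], than pairs with Olig2 in iOL only (1.19 [1.17, 1.21]). They were also narrower in iOL, with a median of 707 against 1064 bp. The Olig2 groups were not compared at like width, so the part of width in this difference was not tested either.

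Brg1 itself was found at kept distal mOL peaks more often than at gained and lost distal peaks, which were also narrower. Brg1 of iOL met 29.5% [28.5, 30.5] of kept distal mOL peaks, and Brg1 of mOL met 28.6% [27.6, 29.6]. At gained distal peaks the shares were 7.34% [6.90, 7.80] for Brg1 of iOL and 9.97% [9.46, 10.5] for Brg1 of mOL. At lost distal peaks the order was the other way, with 14.4% [13.0, 15.9] for Brg1 of iOL and 6.84% [5.83, 7.97] for Brg1 of mOL. Brg1 of OPC, a list of 452 peaks, met 3.31% of kept, 0.784% of gained and 0.675% of lost distal peaks.

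The same order held in the 2 middle width classes, which matters because gained and lost peaks are narrower. From 500 to under 1000 bp, Brg1 of iOL met 13.9% [12.0, 15.9] of lost distal peaks and Brg1 of mOL 6.54% [5.26, 8.03], whereas at gained distal peaks the shares were 7.29% [6.71, 7.91] and 8.89% [8.25, 9.57]. From 1000 to under 2000 bp they were 24.2% [19.4, 29.6] and 11.9% [8.46, 16.2] at lost peaks, and 8.52% [7.51, 9.62] and 13.3% [12.0, 14.6] at gained peaks. Under 500 bp the lost peaks kept this order, with 10.2% [7.95, 12.9] for Brg1 of iOL and 5.19% [3.58, 7.25] for Brg1 of mOL. The gained peaks under 500 bp met Brg1 of iOL in 5.69% [4.79, 6.70] and of mOL in 6.41% [5.46, 7.47] of cases, whose intervals overlap. At 2000 bp and over, 24.9% [21.1, 29.1] of 481 gained peaks met Brg1 of mOL and 9.36% [6.91, 12.3] met Brg1 of iOL. Only 13 distal peaks of that width were lost, of which 6 met Brg1 of iOL and 0 met Brg1 of mOL. Kept distal mOL peaks of 500 to under 1000 bp met Brg1 of mOL in 19.9% [18.4, 21.4] of cases. Lost peaks are iOL peaks, and kept distal iOL peaks of this width met Brg1 of iOL in 23.3% [21.9, 24.7] of cases. From 1000 to under 2000 bp that share was 34.1% [32.3, 35.9], also above that of lost peaks. Under 500 bp it was 14.7% [12.5, 17.2], and its interval overlaps that of lost peaks. At 2000 bp and over it was 45.9% [42.6, 49.3], with too few lost peaks to compare.

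Counted as peaks with Brg1 at 1 of the stages only, lost distal peaks had 217 with Brg1 in iOL only and 49 in mOL only. Gained distal peaks had 566 in iOL only and 908 in mOL only, and kept distal mOL peaks 859 and 784. The iOL Brg1 list (5465 peaks) is longer than the mOL list (4378). With the 4378 widest Brg1 peaks of each stage, a setting chosen after seeing the data, the counts were 180 and 64 at lost peaks, 472 and 976 at gained peaks, and 798 and 852 at kept peaks. With H3K27Ac lists of equal number as well, they were 295 and 146 at lost peaks and 253 and 617 at gained peaks. At lost and gained distal peaks the direction was the same in these settings, whereas at kept peaks the order of the counts turned. Most distal peaks of each class nevertheless met Brg1 at neither stage. The shares were 85.7% [85.1, 86.3] of gained, 83.4% [81.8, 84.9] of lost and 60.6% [59.5, 61.6] of kept mOL peaks.

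For Olig2 the mOL list is short, with 2759 peaks against 25787 in iOL, and 92.8% [91.7, 93.7] of the mOL Olig2 peaks met an iOL one. Olig2 of iOL met 67.3% [66.3, 68.4] of kept distal mOL peaks, 55.1% [53.0, 57.1] of lost distal peaks and 23.9% [23.2, 24.6] of gained distal peaks. Olig2 of OPC met 53.6%, 35.3% and 23.1% of them. Gained elements had the lowest share of the 3 classes for both lists. With the 2759 widest Olig2 peaks of each stage, a setting chosen after seeing the data, Olig2 of iOL met 19.7% of kept, 8.10% of lost and 2.81% of gained distal peaks, so the order was the same, while lost peaks lay closer to gained than to kept ones. From 500 to under 1000 bp the shares for Olig2 of iOL were 61.6% [59.7, 63.4] in kept mOL peaks, 57.4% [54.6, 60.1] in lost peaks and 23.8% [22.8, 24.8] in gained peaks. Lost peaks are iOL peaks, and kept distal iOL peaks of this width had 57.1% [55.4, 58.7], so kept and lost did not differ there. Under 500 bp the intervals of kept iOL and lost peaks overlap as well, at 45.1% [41.8, 48.4] and 43.5% [39.5, 47.5]. From 1000 to under 2000 bp the shares were 74.7% [73.1, 76.4] and 67.6% [61.9, 72.9].

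Olig2 of mOL met 11.0% [10.3, 11.7] of kept distal mOL peaks, 6.62% [5.62, 7.73] of lost and 3.50% [3.20, 3.84] of gained distal peaks. Gained distal peaks with Olig2 in mOL and not in iOL numbered 31, against 2682 with Olig2 in iOL only. This contrast rests on list length: with the 2759 widest Olig2 peaks of each stage the counts were 383 and 293. Over all stages, 64.3% [63.4, 65.1] of gained distal peaks met neither Brg1 nor Olig2, compared with 40.3% [38.3, 42.4] of lost and 24.4% [23.5, 25.4] of kept distal mOL peaks.

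**Figure D3:**
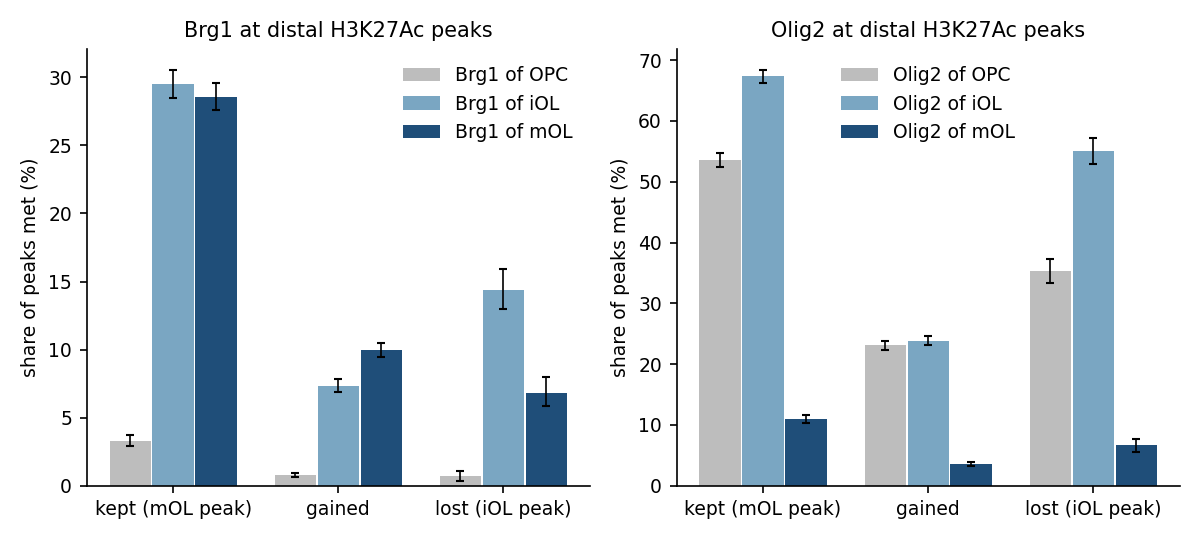
Share of distal H3K27Ac peaks (without mOL H3K4me3) that met a Brg1 peak (left) or an Olig2 peak (right) of each stage, in percent of 7907 kept mOL, 13010 gained and 2221 lost peaks; bars are shares and whiskers exact 95% intervals over peaks, and the axes of the panels differ. Brg1 of mOL exceeded Brg1 of iOL at gained peaks (9.97% against 7.34%) and lay under it at lost peaks (6.84% against 14.4%). Olig2 of iOL was most frequent at kept mOL peaks, which were wider than gained and lost peaks.

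Distances to the nearest peak were taken from distal peaks of each class. They run from edge to edge, with 0 for overlap. To the nearest mOL Brg1 peak the median was 40617 bp from kept distal mOL peaks, 85923 bp from gained and 138389 bp from lost distal peaks. To the nearest iOL Brg1 peak it was 32788, 85939 and 77585 bp. The iOL Brg1 list is longer (5465 against 4378 peaks), so distances can be compared between classes within 1 list, not between the lists. Kept peaks were nearest in both lists. Lost peaks had a larger median than gained peaks to Brg1 of mOL and a smaller one to Brg1 of iOL. A Brg1 peak of mOL lay within 10 kb of 37.2% of kept, 22.9% of gained and 14.2% of lost distal peaks.

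To the nearest iOL Olig2 peak the median was 0 bp for kept and for lost distal peaks and 7928 bp for gained ones. To the much sparser mOL Olig2 peaks it was 191044 bp for kept, 220833 bp for gained and 229431 bp for lost distal peaks. The distance to the nearest mOL H3K4me3 peak separated the classes little, with medians of 37425 bp for kept, 45640.5 bp for gained and 40447 bp for lost distal peaks. Only 5.25% of kept, 4.34% of gained and 4.41% of lost distal peaks lay within 1 kb of an mOL H3K4me3 peak. The medians to H3K4me3 of iOL were 55589, 73018 and 57303 bp, and to H3K4me3 of OPC 54105, 68296 and 53112 bp.

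**Figure D4:**
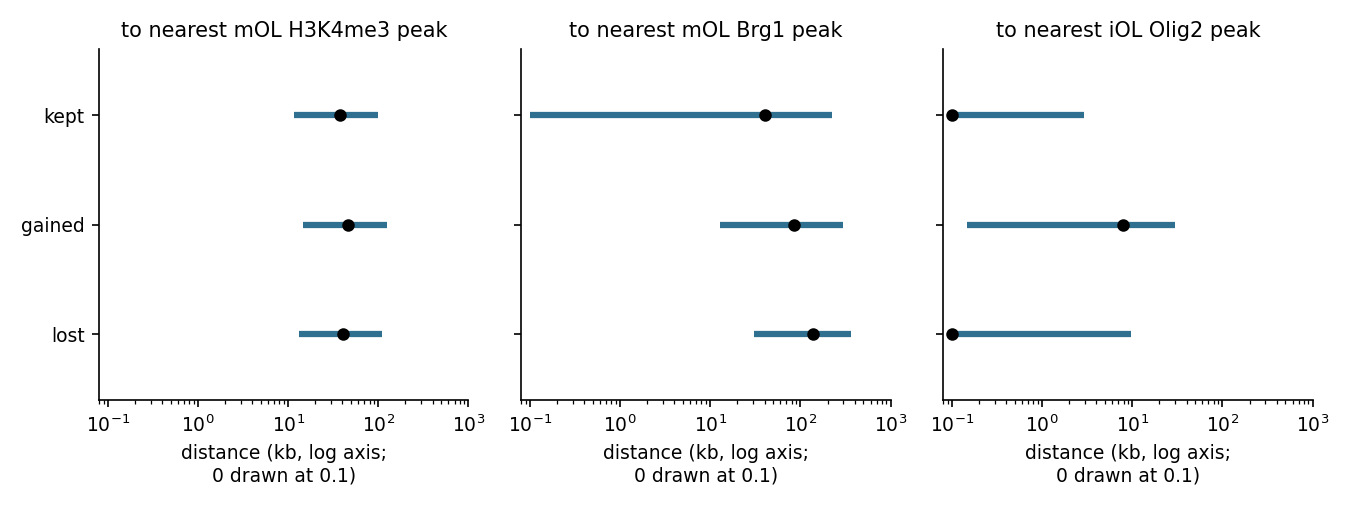
Distance from distal H3K27Ac peaks to the nearest mOL H3K4me3, mOL Brg1 and iOL Olig2 peak (kb, log axis, with 0 drawn at 0.1); dots are medians and bars run from the lower to the upper quartile over 7907 kept mOL, 13010 gained and 2221 lost peaks. Medians to H3K4me3 lie close together, those to mOL Brg1 run from 40617 bp (kept) to 138389 bp (lost), and kept and lost peaks have a median of 0 to iOL Olig2.

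H3K4me3-marked peaks met the factors less often than distal ones in each class. Brg1 of mOL met 2.56% of kept, 0.466% of gained and 0.491% of lost marked peaks, and Olig2 of iOL met 11.6%, 5.70% and 6.14%. RNAPII of iOL, the polymerase of mRNA genes, met 13.4% [12.8, 14.1] of kept marked mOL peaks, against 2.88% [2.37, 3.45] of gained and 2.21% [1.02, 4.16] of lost ones. Of gained marked peaks, 45.2% [43.6, 46.8] met an iOL H3K4me3 peak and 53.3% [51.7, 54.8] an OPC one. Counted over H3K4me3 peaks, a different unit, 56.4% [55.6, 57.1] of all mOL H3K4me3 peaks met an iOL and 61.4% [60.6, 62.1] an OPC H3K4me3 peak. Of the 3288 mOL H3K4me3 peaks acetylated in mOL only, 1470 met an iOL H3K4me3 peak. Of kept marked mOL peaks, 77.8% [77.0, 78.6] met an iOL H3K4me3 peak. In 13.3% [12.3, 14.4] of gained marked peaks, the H3K4me3 peak also held a kept H3K27Ac peak.

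Seen from the 17530 mOL H3K4me3 peaks, 56.5% [55.8, 57.3] met H3K27Ac of both stages, 18.8% [18.2, 19.3] of mOL only, 1.97% [1.77, 2.19] of iOL only and 22.8% [22.1, 23.4] of neither. H3K4me3 peaks acetylated at both stages were the widest of these, with a median of 1232 bp, and those acetylated at neither stage the narrowest, with 593 bp. Among mOL H3K4me3 peaks that had no iOL H3K4me3 peak (7646), 23.8% [22.8, 24.7] were acetylated in mOL only and 28.7% [27.7, 29.7] at both stages.

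Acetylation in OPC differed between the classes as well. An OPC H3K27Ac peak was met by 72.5% [71.8, 73.1] of kept mOL peaks, 24.0% [22.4, 25.7] of lost peaks and 16.8% [16.3, 17.4] of gained peaks. Among distal peaks the shares were 55.2% in kept, 21.5% in lost and 11.0% in gained peaks, and among H3K4me3-marked ones 85.5%, 37.8% and 36.4%. With equal numbers of peaks the share was 44.9% [43.7, 46.2] in all lost peaks and 19.7% [18.8, 20.6] in all gained peaks, and 65.8% [64.0, 67.6] and 47.7% [45.0, 50.4] in the marked ones, so the near-equality of lost and gained marked peaks depends on the narrow mOL peaks. In the whole lists, 2840 gained peaks were called in OPC and mOL and missing in iOL, 1405 of them H3K4me3-marked, and 632 lost peaks were called in OPC and iOL and missing in mOL.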

How the data were processed

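The deposited files give the chromosome, start and end of each of the authors' peaks and no score, height or p-value, so positions and widths in base pairs were analysed. MACS 1.4.0 and rn4 are named per the submitters' processing notes. For aligner, threshold, control library, read numbers and pooling, the details are not given in the sources used. Samples were grouped by target and stage from their titles. A longer list can come from deeper sequencing or a looser threshold, and this enters all peak numbers and overlaps.

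Starts were printed with 1 added. Overlap (at least 1 bp), edge-to-edge distances, width classes and one-to-one pairs were computed with Python 3.11.15, numpy 2.4.6 and scipy 1.17.1, and plotted with matplotlib 3.10.9. Overlap was tested on simulated lists, and counts equalled those of bedtools 2.31.1 for 6 pairs of lists. Named regions came from the 3 widest gained and lost peaks with and without mOL H3K4me3 and the 3 largest and 3 smallest width ratios, on numbered chromosomes or X; a selection is printed. The lists, classes and splits were chosen with earlier results of these data known. No test between stages was made.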

Additional observations from a re-analysis of the deposited data

How the results depend on the processing

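With 1 library for each stage and unknown depth, list length limits every value, and kept, lost and gained mean called or not called. No paired analysis was possible because each group has 1 library. In the order iOL peaks kept, mOL peaks gained, mOL H3K4me3 at gained, kept and lost peaks, median width ratio, and mOL Brg1 within 10 kb of gained and kept distal peaks, the reported values are 87.8, 47.8, 22.9, 57.0 and 15.5%, 1.16, and 22.9 and 37.2%. With equal numbers of widest peaks they were 70.9, 35.1, 17.7, 55.9 and 44.0%, 1.21, and 26.1 and 41.2%. With the widest mOL peaks covering as much sequence as iOL they were 45.3, 25.2, 12.2, 49.5 and 54.9%, 1.27, and 29.6 and 46.0%. With the wider 50% of each list they were 83.5, 49.7, 30.2, 54.6 and 34.8%, 1.14, and 29.1 and 45.9%. With peaks within 1000 bp counted as meeting they were 90.8, 39.8, 19.6, 59.3 and 9.91%, 1.20, and 21.5 and 38.9%. With the 10000 widest peaks of each list, chosen after seeing the data, they were 63.3, 40.2, 23.1, 50.2 and 52.7%, 1.22, and 32.8 and 48.8%. With overlap of 50% of the shorter peak the kept share was 86.8%, the gained share 49.2% and H3K4me3 at gained peaks 22.2%. With the middle 200 bp of each H3K27Ac peak 54.6% were kept and 66.6% gained, and with centre-to-centre distances mOL Brg1 lay within 10 kb of 22.1% of gained distal peaks. In each setting in which it was recomputed, H3K4me3 was met less often by gained than by kept peaks, and the median ratio was over 1. Likewise, mOL Brg1 lay within 10 kb of more kept than gained distal peaks. In the settings restricted by width, mOL peaks were cut at a greater width than iOL peaks (1209 against 837 bp with the 10000 widest). Such a cut favours ratios over 1, so the ratios of these settings cannot show widening. H3K4me3 and the ratio were not recomputed for the middle 200 bp or centre-to-centre settings, nor Brg1 for the former. The order of H3K4me3 at gained and lost peaks turned with each list restricted by width. That of kept and lost peaks turned with equal sequence (49.5% and 54.9%). It also turned with the 10000 widest peaks (50.2% and 52.7%), where the intervals overlap. Of the 65 values recomputed, 20 stayed within the 95% interval of the reported value, among them all those without unplaced sequence and with H3K4me3 of any stage; apart from the fewer peaks compared, the cause of the other shifts was not tested.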

Other observations

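Gained acetylation lay both beside kept peaks and apart from them. The median distance from a gained peak to the nearest kept mOL peak was 20992 bp, and 41.1% [40.3, 41.8] of gained peaks lay within 12.5 kb of one. Within 1 kb of a kept peak lay 35.1% [33.6, 36.6] of gained H3K4me3-marked peaks and 12.7% [12.1, 13.2] of gained distal peaks, and the median distances were 11518 and 23316.5 bp. With equal numbers of peaks the shares were 22.6% [20.4, 24.9] and 11.4% [10.7, 12.3], and the medians, 27233 and 26124 bp, no longer had this order.

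When mOL peaks with gaps of at most 12.5 kb between them were joined, they formed 17186 stretches, of which 6727 (39.1%) held gained peaks only, 6381 (37.1%) kept peaks only and 4078 (23.7%) both. Lone gained peaks made up 4734 of the 6727. Of the 1139 stretches of 5 or more peaks, 995 held both kinds, 83 kept peaks only and 61 gained peaks only. Brg1 of mOL met 41.3% [38.2, 44.4] of those 995 stretches, 25.3% [16.4, 36.0] of those 83 and 24.6% [14.5, 37.3] of those 61. Stretches of kept peaks only and of gained peaks only thus had similar shares. Longer stretches have more room to meet a factor peak, and the median lengths were 23831, 18655 and 15323 bp.

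Gains and losses were spread over the genome. The share of mOL peaks gained ran from 40.7% on chromosome 10 to 51.1% on chromosome 17. The share of iOL peaks lost ran from 10.0% on chromosome X to 15.9% on chromosome 16 among the named chromosomes.

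iOL peaks were split as well as joined. The 1454 iOL peaks that met more than 1 mOL peak had a median width of 1437 bp, and 58.4% [55.8, 60.9] of them were distal. The 1883 mOL peaks that joined more than 1 iOL peak had a median width of 2002 bp, and Brg1 of mOL met 38.9% [35.8, 42.1] of the distal ones, compared with 27.2% [26.2, 28.3] of distal mOL peaks that met 1 iOL peak (medians of 2077 and 1099.5 bp).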
